A study of Mus musculus with 9 samples.

Results

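The methionine cycle and the return of homocysteine to methionine were followed through 10 genes in the mouse hippocampus. The genes were found by their symbol: Mat2a, Mat2b, Ahcy, Ahcyl1, Ahcyl2, Mtr, Mtrr, Bhmt, Bhmt2 and Cbs. All 10 were among the 54532 genes that the deposited tables list. RNA sequencing covered 9 hippocampus samples in 3 groups of 3, from C57BL/6 mice labelled male and bought at an age of 6 to 8 weeks. Con mice, labelled WT, were kept on a standard diet. In HMD a high-methionine diet was fed for 8 weeks. Bet+HMD mice ate that diet for 8 weeks and then had 2.5% (w/v) betaine in the drinking water for 2 weeks. Whether the methionine diet went on during the betaine is not stated, and the strain of the 3 Bet+HMD samples is written C57BL/6, C57BL/7 and C57BL/8. The study's methods describe female mice, but Xist, which is expressed from the inactive X chromosome, had at most 0.0449 FPKM in any library.

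Methionine is activated to S-adenosylmethionine (SAM) by methionine adenosyltransferase. The enzyme of the brain has a catalytic subunit encoded by Mat2a and a regulatory subunit encoded by Mat2b. Once SAM has given its methyl group away, S-adenosylhomocysteine is left, and Ahcy splits it into adenosine and homocysteine. Ahcyl1 and Ahcyl2 resemble Ahcy in sequence, and Ahcyl1 is best known as a regulator of inositol trisphosphate receptors. Homocysteine regains a methyl group from folate through methionine synthase (Mtr), a cobalamin enzyme that Mtrr reactivates. In liver and kidney it can take the methyl group from betaine instead, through Bhmt, while the related Bhmt2 uses S-methylmethionine. Cbs removes homocysteine by joining it to serine.

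Mat2a RNA carries the best known regulatory sequence among these genes. The methyltransferase Mettl16 binds hairpins in its 3′ untranslated region that hold the motif TACAGANAA, and through them sets splicing and stability of the RNA according to SAM. In the longest annotated 3′ untranslated region of Mat2a (2178 bases, GENCODE M21 on GRCm38) the motif occurred 6 times. Of 21173 genes with such a region, 6.02% held the motif at least once, and Mat2a was the 1 gene with as many as 6 occurrences. The other 9 genes followed here held 0. The 6 places are shown because Mat2a was the gene of the cycle that separated HMD from Con, with the motif in capitals and 9 bases on each side. All lie on the minus strand, and the letters are those of the RNA written with T.

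Mat2a site 1, chr6:72434236-72434262: ggcgtaggtTACAGAGAAgccttcaag
Mat2a site 2, chr6:72433452-72433478: cttgtgataTACAGAGAAgtcacaggg
Mat2a site 3, chr6:72433273-72433299: tggtgtagcTACAGAGAAaccagcttc
Mat2a site 4, chr6:72433158-72433184: tggcgtaagTACAGAGAAgccatcacc
Mat2a site 5, chr6:72433047-72433073: aaggtgtccTACAGAAAAaccttgggt
Mat2a site 6, chr6:72432939-72432965: ctggtgtggTACAGAGAAgccagcttg

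The start sites of 5 genes are shown because Mat2a, Mtr and Cbs lay higher, and Mat2b and Ahcy lower, in Bet+HMD than in Con. Each sequence, from RefSeq on GRCm38.p6, runs from 250 bases before to 50 bases after the annotated start, 5′ to 3′ on the minus strand. The Mat2b window lies inside the gene as counted, which begins at 40695203 on the minus strand. It may therefore not be the start of the counted gene. Capitals mark the CCAAT box, the GC box GGGCGG, the TATA box TATAAA and the E-box CACGTG on either strand, and neighbouring copies of GGGCGG may overlap. Of 32851 promoters of this length, 37.4% held CCAAT, 35.7% held GGGCGG and 13.6% held TATAAA.

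Mat2a, chr6:72439507-72439806: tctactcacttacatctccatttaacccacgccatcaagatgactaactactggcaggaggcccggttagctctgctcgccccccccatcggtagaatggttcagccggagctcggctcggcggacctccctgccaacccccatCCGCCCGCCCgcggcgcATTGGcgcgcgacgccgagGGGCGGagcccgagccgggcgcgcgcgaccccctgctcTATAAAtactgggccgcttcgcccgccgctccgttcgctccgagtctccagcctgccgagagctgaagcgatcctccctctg
Mat2b, chr11:40692633-40692932: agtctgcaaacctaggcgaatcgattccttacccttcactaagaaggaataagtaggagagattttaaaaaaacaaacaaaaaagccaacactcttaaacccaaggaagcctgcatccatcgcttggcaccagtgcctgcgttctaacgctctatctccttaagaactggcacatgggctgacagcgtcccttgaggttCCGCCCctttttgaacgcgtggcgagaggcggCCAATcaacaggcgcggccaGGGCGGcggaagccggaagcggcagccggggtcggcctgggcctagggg
Mtr, chr13:12258064-12258363: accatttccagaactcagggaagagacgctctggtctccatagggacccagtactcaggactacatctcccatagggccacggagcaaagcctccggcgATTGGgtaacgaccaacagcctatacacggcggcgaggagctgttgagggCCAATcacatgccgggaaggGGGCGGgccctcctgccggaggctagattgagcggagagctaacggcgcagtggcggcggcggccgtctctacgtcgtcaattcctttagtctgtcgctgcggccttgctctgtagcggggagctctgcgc
Ahcy, chr2:155074448-155074747: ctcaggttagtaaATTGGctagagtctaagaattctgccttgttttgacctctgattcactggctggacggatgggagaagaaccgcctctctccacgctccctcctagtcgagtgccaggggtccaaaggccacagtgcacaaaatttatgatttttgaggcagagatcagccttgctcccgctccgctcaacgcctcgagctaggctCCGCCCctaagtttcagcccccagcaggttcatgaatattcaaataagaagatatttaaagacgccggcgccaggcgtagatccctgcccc
Cbs, chr17:31637156-31637455: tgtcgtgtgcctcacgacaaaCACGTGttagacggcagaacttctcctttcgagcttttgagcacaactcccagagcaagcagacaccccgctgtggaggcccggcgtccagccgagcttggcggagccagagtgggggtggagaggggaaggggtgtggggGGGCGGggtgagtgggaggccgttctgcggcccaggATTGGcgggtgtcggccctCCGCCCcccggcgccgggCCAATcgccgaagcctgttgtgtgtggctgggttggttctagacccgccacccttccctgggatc

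All 5 promoters held CCAAT and GGGCGG. Of these promoters only that of Mat2a held TATAAA, beginning 32 bases before the start, and its 3 copies of GGGCGG began 106, 102 and 70 bases before it. The Mtr promoter had 2 copies of CCAAT, beginning 151 and 101 bases before the start. The letters TGATGNAA, searched as the binding motif of the amino acid response, were in none of the 5, and 3.97% of all promoters of this length held them. The E-box was in that of Cbs alone among the 5, beginning 229 bases before the start, and 7.15% of all promoters held it.

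The depth was alike among groups, with 16031464 to 18291952 reads assigned to genes in the 9 libraries of the later of 2 deposited tables. Con and HMD were also in an earlier table, and HMD was compared with Con there. Bet+HMD was in the later table alone. No label names a batch, so betaine and a possible difference between batches cannot be told apart. The 2 weeks of betaine came after the 8 weeks of diet, so betaine cannot be told apart from that added time either. The Bet+HMD libraries also stood apart in their makeup. The nuclear RNA Meg3 had 324.5 to 340.8 FPKM in them against 12.2 to 27.2 in the others, Malat1 had 134 to 150.3 against 15.8 to 33.8, and 79 ribosomal protein genes took 0.426% to 0.5001% of the FPKM sum against 0.839% to 1.35%. The 8 hippocampal markers summed to 219 to 237 FPKM in Con, 179 to 217 in HMD and 185 to 190.2 in Bet+HMD, so that Con lay above all other libraries. Spink8 and Fibcd1, markers of pyramidal cells, were lower in every Bet+HMD library than in any other. They had 5.81 to 7.99 and 13.05 to 13.5 FPKM there, against 15.2 or more and 20.4 or more elsewhere. The rest of the 8, Prox1, C1ql2, Wfs1, Nectin3, Neurod6 and Zbtb20, overlapped between Bet+HMD and the other libraries. Neurod6, for example, had 75.6 to 80.4 FPKM in Bet+HMD and 58.2 to 91.4 elsewhere. Con replicate 2 held hepatocyte markers, with Alb at 63.65 FPKM against at most 4.18 elsewhere, and HMD replicate 1 held thalamus markers, with Tcf7l2 at 10.8 FPKM against at most 2.098 elsewhere. The sum of the 5 thalamus markers was also higher in the other HMD libraries, at 21.2 and 26.3 FPKM beside 60.25 in replicate 1, than in Con, at 12.2 to 15.65, or Bet+HMD, at 14.4 to 16.0. Red blood cell markers summed to 99.75 to 147.6 FPKM in Con, 149.4 to 233.2 in HMD and 72.2 to 122.4 in Bet+HMD. Endothelium markers summed to 42.0 to 44.1, 37.1 to 38.4 and 32.5 to 34.2 FPKM in the same order. Of these, Cldn5 was lower and Flt1 higher in every Bet+HMD library than in any other. Choroid plexus markers summed to 770 to 3204 FPKM within Con alone. In whole tissue fewer cells of a type and less RNA per cell cannot be told apart. The part that this makeup has in the values below was not tested.

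The genes spanned a wide range of expression per length in FPKM, fragments scaled to exon length and library size. In Con, Ahcyl1 led with 72.2 ± 7.28 FPKM (SD, n = 3), followed by Mat2a with 32.8 ± 1.13, Mat2b with 21.8 ± 2.06 and Ahcyl2 with 16.1 ± 1.38, and no neighbours in this order overlapped. Cbs with 7.51 ± 0.390 and Ahcy with 7.23 ± 0.476 FPKM overlapped each other, as did Mtrr with 2.90 ± 0.182 and Mtr with 2.81 ± 0.320. Bhmt and Bhmt2 lay lowest, at 0.646 ± 0.888 and 0.220 ± 0.201 FPKM, and overlapped. In HMD the order was the same except that Ahcy stood above Cbs, Mtr above Mtrr and Bhmt2 above Bhmt, each pair overlapping, and that Mat2b and Ahcyl2 also overlapped. In Bet+HMD, Mat2b dropped below Ahcyl2 and Mtr stood apart from Mtrr, while Ahcy and Mtr overlapped.

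**Figure D1:**
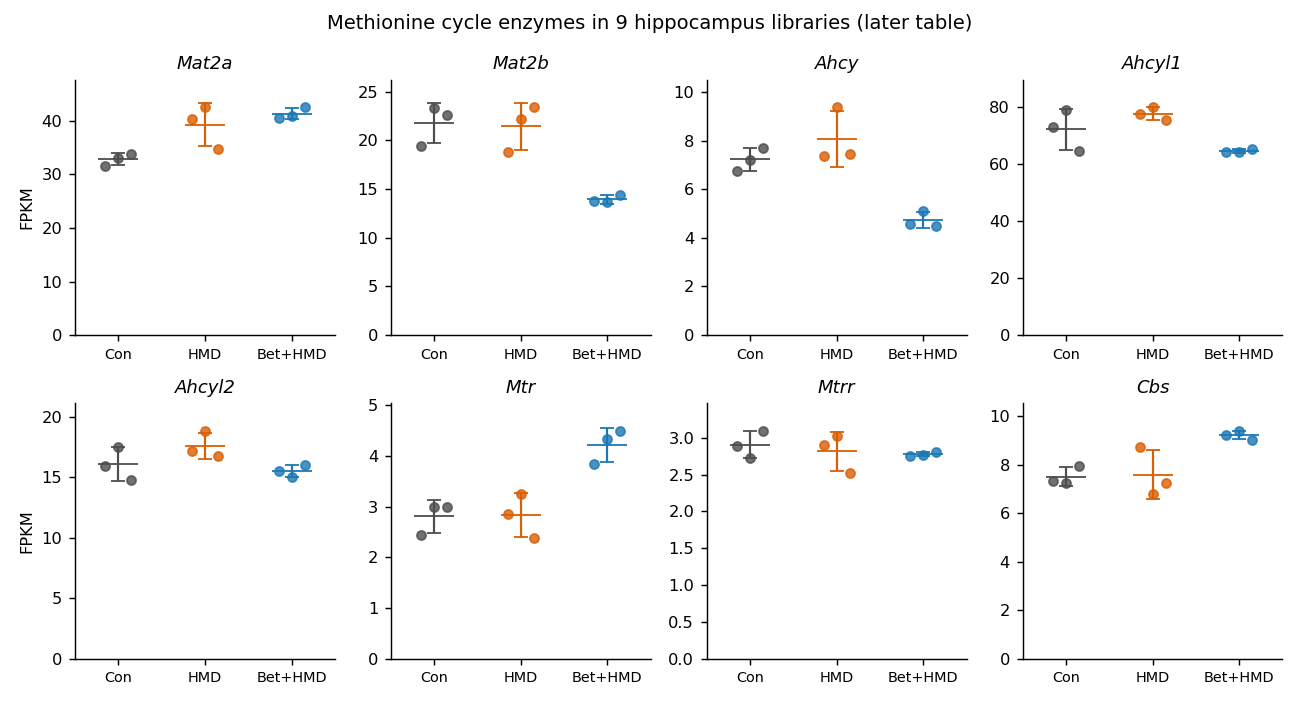
Expression of 8 genes of the cycle in 9 hippocampus libraries, in FPKM from 0 on the vertical axis of each panel, with Con, HMD and Bet+HMD side by side; points are libraries, long bars the mean and whiskers 1 SD (n = 3). Mat2b and Ahcy lie lower in all 3 Bet+HMD libraries than in any other, and Mtr and Cbs lie higher.

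HMD was compared with Con to see whether the diet moved the enzymes that handle methionine. None of the genes passed the test. Of 12989 genes tested by limma on log2(FPKM + 1), 0.0% had an adjusted p under 0.05 (0 genes), and 592 had an unadjusted p under 0.05. Of the 10 genes of the cycle, 8 were expressed highly enough to be tested (a mean of at least 1 FPKM), 0 were called and 0 had an unadjusted p under 0.05. Their median log2 fold change was 0.055, against -0.004 for all genes tested. The libraries of both groups did not overlap at 1 of the 8, Mat2a, and this was so for 9.37% of all genes tested. A difference of this kind at 1 gene is near that background.

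Bet+HMD was compared with HMD to see where the enzymes stood after betaine. Mat2b, Ahcy and Ahcyl1 were lower and Mtr was higher. These were 4 of the 8 genes tested, or 50%, where 48.3% of all 13672 genes were called, so the share called was near the background. Mtr was the 1 gene called higher, where the share of all genes was 22.8%, and 3 were called lower, where it was 25.5%. The balance depended on the scale, with 3 higher (Mat2a, Mtr and Cbs) and 2 lower (Mat2b and Ahcy) under TPM scaling and under quantile normalization. The libraries did not overlap at 6 of the 8, against 60.1% of all genes. The median log2 fold change was -0.09, against -0.03 for all genes. Without Bet+HMD replicate 2 the count was 2, with Mat2b and Ahcy below HMD. Calls over all genes fell as well without that library, to 4782 of 13556 from 6607 of 13672.

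Bet+HMD was also compared with Con, the same Bet+HMD libraries being used again. Mat2a, Mtr and Cbs were higher, and Mat2b and Ahcy were lower. These were 5 of the 8, or 62.5%, against 39.7% of all 13643 genes tested. Rises made up 3 of them, against 19.4% of all genes, and falls made up 2, against 20.4%. The libraries did not overlap at 5 of the 8, against 55.1% of all genes, and the median log2 fold change was -0.05, against -0.04. The count was 3 without Bet+HMD replicate 1 and 2 without either of the other Bet+HMD replicates, Mat2b and Ahcy being called each time. Shares over all genes without these libraries are not given here, so the lower counts are not read as a trait of these genes.

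**Figure D2:**
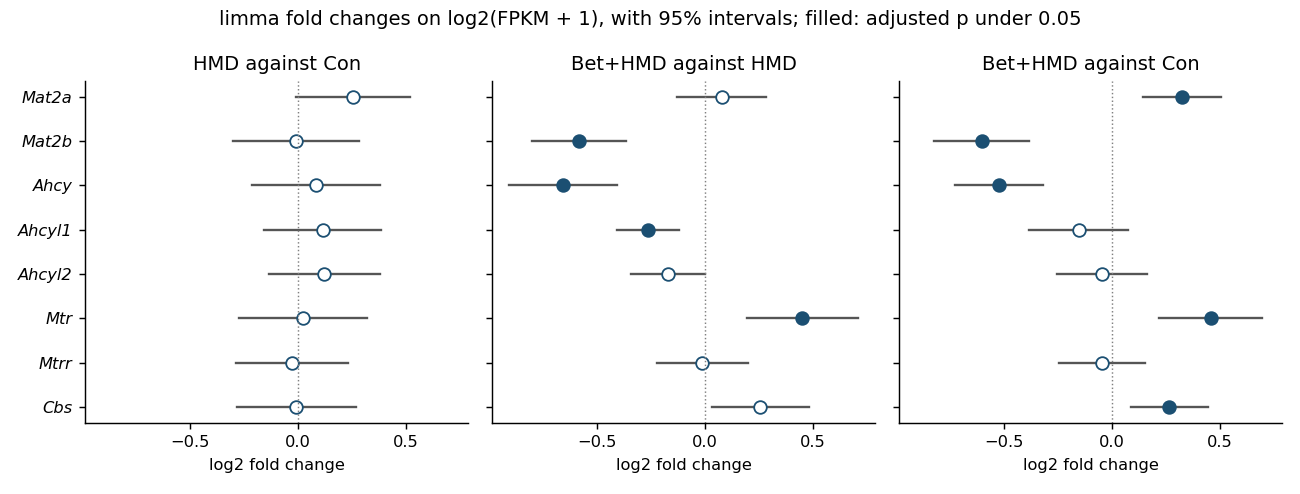
Fold changes of the 8 genes tested, on the log2(FPKM + 1) scale, in HMD against Con, Bet+HMD against HMD and Bet+HMD against Con; points are limma estimates, lines 95% intervals, and filled points have an adjusted p under 0.05. The intervals of HMD against Con all include 0, and Mat2b and Ahcy lie below 0 in both other comparisons; the fall of Ahcyl1 against HMD was not called under TPM scaling and turned to 0.12 under quantile normalization.

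Mat2a (ENSMUSG00000053907, chromosome 6, 72432799 to 72439558, minus strand, GRCm38) encodes the catalytic subunit that makes SAM. In the earlier table it had 30.9, 32.65 and 32.9 FPKM in Con and 39.9, 41.7 and 34.3 in HMD. Every HMD library lay above every Con library, with HMD replicate 3 the nearest to Con. The log2 fold change was 0.25 (SE 0.113, 95% interval -0.01 to 0.52), and the limma adjusted p was 0.98. In the later table Bet+HMD had 40.6, 40.8 and 42.5 FPKM, a narrow band inside the range of HMD. Against HMD the log2 fold change was 0.08 (95% interval -0.13 to 0.28, limma adjusted p 0.496), and it was 0.28 under TPM scaling and 0.33 under quantile normalization, both past the threshold. Against Con the later table gave 41.3 ± 1.06 against 32.8 ± 1.13 FPKM, 1.26-fold, with a log2 fold change of 0.32 (SE 0.0754, limma adjusted p 0.0149). It was 0.55 under TPM scaling and 0.60 under quantile normalization. Without any 1 of the Bet+HMD libraries this difference no longer passed, with a limma adjusted p up to 0.0758. Particl, a transcript of the opposite strand that overlaps the start of Mat2a, went the other way, with 5.28 to 7.38 FPKM in Con and HMD and 2.69 to 3.08 in Bet+HMD. No source says if counting respected strand, so reads of the overlap cannot be assigned with certainty.

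Mat2b (ENSMUSG00000042032, chromosome 11, 40679314 to 40695203, minus strand) encodes the regulatory subunit of the same enzyme. It had 19.4, 23.3 and 22.6 FPKM in Con, 18.75, 22.2 and 23.4 in HMD and 13.7, 13.6 and 14.4 in Bet+HMD. Con and HMD covered the same range, and all Bet+HMD libraries lay below it. Against HMD the mean was 0.649-fold, with a log2 fold change of -0.58 (SE 0.0931, limma adjusted p 0.00219). Against Con it was 0.640-fold, with a log2 fold change of -0.60 (SE 0.0928, limma adjusted p 0.00304). HMD against Con gave -0.01 (95% interval -0.30 to 0.28, limma adjusted p 0.994). The fall in Bet+HMD was called under every alternative and without any 1 library, with a log2 fold change between -0.68 and -0.41.

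The RNAs of both subunits thus stood in a different proportion in Bet+HMD, and the proteins were not measured. For each library the FPKM of Mat2b was divided by that of Mat2a, a ratio that no scaling of the library changes. It was 0.615, 0.703 and 0.669 in Con, 0.464, 0.522 and 0.673 in HMD and 0.338, 0.334 and 0.339 in Bet+HMD. HMD reached from below the Con range into it, whereas the Bet+HMD libraries were nearly equal and lower than all others. The ratio in Bet+HMD was 0.510-fold that of Con and 0.617-fold that of HMD, and each difference had p 0.1 in the exact permutation test (two-sided), the smallest that 3 against 3 allows. After adjustment over 21 ratios and comparisons both were 0.175 in this exact permutation test.

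Ahcy (ENSMUSG00000027597, chromosome 2, 155059310 to 155074497, minus strand) encodes S-adenosylhomocysteine hydrolase, the step that releases homocysteine. It had 6.76, 7.21 and 7.71 FPKM in Con, 7.35, 9.38 and 7.43 in HMD and 4.58, 5.10 and 4.48 in Bet+HMD, from 219 to 403 reads. The Bet+HMD libraries lay below all others, and HMD replicate 2 was the highest. Against HMD the mean was 0.586-fold, with a log2 fold change of -0.66 (SE 0.106, limma adjusted p 0.00235). Against Con it was 0.653-fold, with a log2 fold change of -0.52 (SE 0.0865, limma adjusted p 0.00401). HMD against Con in the earlier table gave 0.08 (95% interval -0.21 to 0.38, limma adjusted p 0.98).

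Reads of Ahcy are partly ambiguous because near-identical copies exist. Of the stretches of 100 bases in Ahcy transcripts, 63.6% also occurred in another gene, 59.5% in Gm4737 and 20.7% in Gm9826. Gm4737 had 26 to 75 reads per library and Gm9826 had 8 to 62, and each of them overlapped among the 3 groups. When their reads were added to those of Ahcy, the sum was 8.93 ± 0.704 FPKM in Con, 9.71 ± 1.68 in HMD and 6.10 ± 0.985 in Bet+HMD. The log2 fold change was then -0.59 against HMD (limma adjusted p 0.0122) and -0.49 against Con (limma adjusted p 0.0169), so the direction and the call were those of Ahcy alone. The sum holds only reads counted for 1 of these genes, so any shared reads left uncounted are missing from it too. Gm45609, on the strand opposite to Ahcy and overlapping it, had 0 or 1 read in each Con and HMD library and 3 to 8 in Bet+HMD.

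Ahcyl1 (ENSMUSG00000027893, chromosome 3, 107663118 to 107696560, minus strand) was the most abundant of the 10 genes in each group. It had 72.9, 79.15 and 64.6 FPKM in Con, 77.6, 80.05 and 75.6 in HMD and 64.2, 64.3 and 65.3 in Bet+HMD. The Bet+HMD libraries lay below HMD but met the lowest Con library. Against HMD the log2 fold change came to -0.26 (SE 0.0612, limma adjusted p 0.0106). This call was lost under TPM scaling, where the value was -0.07, and the sign turned under quantile normalization, to 0.12. Without Bet+HMD replicate 1 or replicate 2 the limma adjusted p was 0.0527 and 0.0541. Against Con it was -0.15 (95% interval -0.38 to 0.07, limma adjusted p 0.242; without Con replicate 3 it was -0.23 with 0.0385), and for HMD against Con 0.115 (95% interval -0.15 to 0.39, limma adjusted p 0.98).

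Ahcyl2 (ENSMUSG00000029772, chromosome 6, 29768011 to 29912310, plus strand) had 16.0, 17.5 and 14.8 FPKM in Con, 17.2, 18.8 and 16.8 in HMD and 15.5, 15.01 and 16.05 in Bet+HMD. The Bet+HMD libraries lay below those of HMD and within those of Con. Against HMD the log2 fold change was -0.17 (95% interval -0.34 to 0.00, limma adjusted p 0.091), with 0.02 under TPM scaling. A correction for a trend with gene length gave -0.40 (limma adjusted p 0.00197) and, against Con, -0.32 (limma adjusted p 0.0128), both past the threshold. Without it the value was -0.05 against Con (95% interval -0.26 to 0.16, limma adjusted p 0.709) and 0.12 in HMD against Con (95% interval -0.13 to 0.38, limma adjusted p 0.98). The 4930528J11Rik transcript overlaps Ahcyl2.

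Within the family of Ahcy and its relatives the share of Ahcy was lower and that of Ahcyl2 higher in Bet+HMD. Ahcyl1 made up 75.5% ± 1.17 of their summed FPKM in Con, 75.2% ± 1.11 in HMD and 76.1% ± 0.0583 in Bet+HMD (each SD over 3 libraries). Ahcy held 7.62% ± 1.07, 7.77% ± 0.784 and 5.57% ± 0.426 in the same order. Its share in Bet+HMD, at most 6.04%, was under the lowest share of any Con library, 6.95%, and of any HMD library, 7.20%. Ahcyl2 held 16.8% ± 0.136, 17.02% ± 0.331 and 18.3% ± 0.462, and its lowest share in Bet+HMD, 17.8%, was over the highest of any other library, 17.4%. The ratio of Ahcyl1 to Ahcy within a library was 8.38 to 10.97 in Con, 8.54 to 10.6 in HMD and 12.6 to 14.6 in Bet+HMD, and the exact permutation test (two-sided) gave p 0.1 for Bet+HMD against each other group.

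Mtr (ENSMUSG00000021311, chromosome 13, 12182712 to 12258113, minus strand) encodes methionine synthase, which passes a methyl group from folate to homocysteine. It had 2.44, 2.99 and 3.00 FPKM in Con, 2.86, 3.25 and 2.38 in HMD and 3.85, 4.32 and 4.50 in Bet+HMD, from 343 to 667 reads. Con and HMD overlapped, and every Bet+HMD library lay above both. Against HMD the mean was 1.49-fold, with a log2 fold change of 0.45 (SE 0.109, limma adjusted p 0.0126). Against Con it was 1.504-fold, with a log2 fold change of 0.46 (SE 0.101, limma adjusted p 0.0123). HMD against Con gave 0.025 (95% interval -0.27 to 0.32, limma adjusted p 0.992). Both rises were called under every scaling, with 0.73 against HMD and 0.75 against Con under TPM, but without Bet+HMD replicate 2 or replicate 3 the limma adjusted p was 0.0504 and 0.0532 against HMD, and 0.0553 and 0.0583 against Con.

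Mtrr (ENSMUSG00000034617, chromosome 13, 68560780 to 68582149, minus strand) encodes the reductase that keeps Mtr active. It had 2.88, 2.73 and 3.09 FPKM in Con, 2.90, 3.03 and 2.52 in HMD and 2.76, 2.76 and 2.81 in Bet+HMD. The 3 groups overlapped. Its log2 fold change was -0.03 in HMD against Con (95% interval -0.28 to 0.23, limma adjusted p 0.989), -0.01 in Bet+HMD against HMD (95% interval -0.22 to 0.20, limma adjusted p 0.923) and -0.05 against Con (95% interval -0.24 to 0.15, limma adjusted p 0.69).

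The ratio of Mtrr to Mtr therefore shifted in Bet+HMD. It was 0.913 to 1.18 in Con, 0.932 to 1.06 in HMD and 0.625 to 0.716 in Bet+HMD. Bet+HMD did not overlap either group, with p 0.1 for each in the exact permutation test (two-sided). The RNA ratio of Mtr, a gene of remethylation, to Ahcy, a gene of homocysteine release, moved furthest of the 7 ratios. It was 0.361, 0.414 and 0.389 in Con, 0.390, 0.346 and 0.321 in HMD and 0.841, 0.848 and 1.00 in Bet+HMD. This was 2.31-fold the ratio of Con and 2.55-fold that of HMD, and the exact permutation test (two-sided) again gave p 0.1 for each. With the reads of the Ahcy copies added, the log2 differences were 1.15 and 1.25 in place of 1.21 and 1.35.

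**Figure D3:**
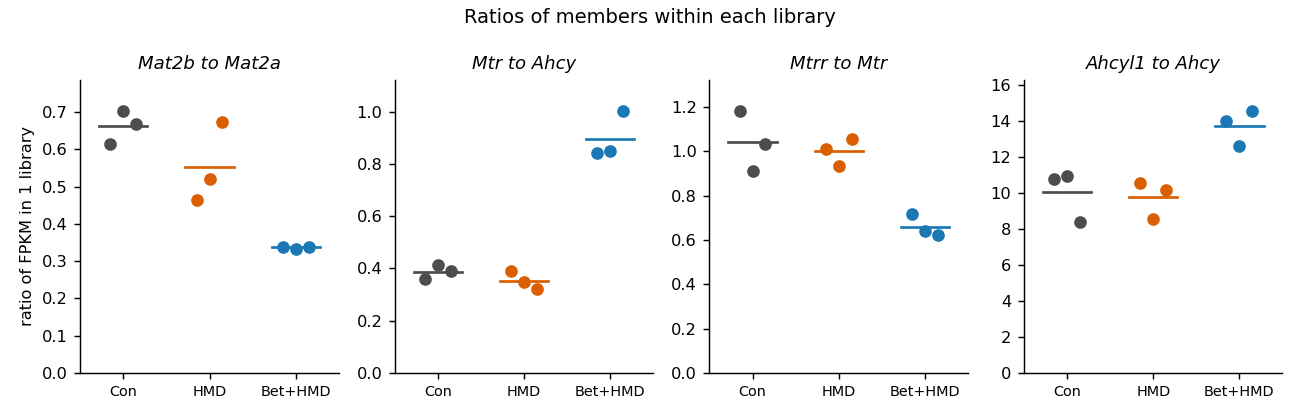
Ratios of 2 genes within each library, from FPKM of the later table, on linear axes from 0, for Mat2b to Mat2a, Mtr to Ahcy, Mtrr to Mtr and Ahcyl1 to Ahcy; points are libraries and bars group means. In each panel the 3 Bet+HMD libraries lie outside the range of Con and HMD, which overlap each other.

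Of the 7 ratios that could be formed, 0 separated HMD from Con. Bet+HMD was separated from HMD by 5 and from Con by all 7. Among single genes 60.1% and 55.1% did not overlap in these comparisons, and the share among ratios of other genes was not computed. Ahcy and Mtr each enter several of the ratios, so the ratios are not independent of each other. The ratio of Ahcyl2 to Ahcyl1 differed least, with 0.219 to 0.229 in Con, 0.222 to 0.235 in HMD and 0.234 to 0.246 in Bet+HMD. The ratio of Cbs to Mtr was 2.42 to 3.01 in Con, 2.099 to 3.05 in HMD and 2.01 to 2.40 in Bet+HMD. The smallest adjusted value of the exact permutation test over all 21 was 0.175, and no ratio could pass the threshold with 3 libraries a group.

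Bhmt (ENSMUSG00000074768, chromosome 13, 93616675 to 93637961, minus strand), whose enzyme uses betaine, was close to absent from the hippocampus except in 1 library. It had 13, 156 and 14 reads in Con, 4, 0 and 20 in HMD and 2, 8 and 6 in Bet+HMD. Con replicate 2 stood far above the rest, with 1.67 FPKM, and the next highest library had 0.206 FPKM. A count of 0 in HMD replicate 2 allows up to 3 reads. The mean of Bhmt was under 1 FPKM in every comparison, so it was not tested. The 3 Bet+HMD libraries lay below the 3 Con libraries, and within the range of HMD.

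Con replicate 2 was also the library with hepatocyte markers. The 4 hepatocyte markers other than Ttr, which the choroid plexus also expresses, summed to 73.55 FPKM there and to 0.204 to 6.26 elsewhere, and Mat1a, the liver form of methionine adenosyltransferase, had 4.91 FPKM there and 0.0331 to 0.715 elsewhere. Among the other libraries Bhmt did not keep the order of the markers. HMD replicate 2 was second in hepatocyte markers with 6.26 FPKM and had 0 Bhmt reads, and HMD replicate 3 had 20 Bhmt reads and 0.645 FPKM of these markers. Mat1a was second in HMD replicate 2 as well, with 0.715 FPKM, and had 0.0331 to 0.083 FPKM in Bet+HMD, where the markers were lowest. It had 0.0332 FPKM in HMD replicate 1, beside 1.85 FPKM of the markers. The source of the Bhmt reads was not tested. With Con replicate 2 left out, the Con libraries had 13 and 14 Bhmt reads. Part of Bhmt, 17.3% of its stretches of 100 bases, was shared with Gm5096 and the pseudogene Bhmt-ps1. Gm5096 had 1 to 18 reads, the highest also in Con replicate 2, and Gm15622 overlaps Bhmt.

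Bhmt2 (ENSMUSG00000042118, chromosome 13, 93655720 to 93674302, minus strand) was not tested either. It had 1, 17 and 9 reads in Con, 4, 2 and 7 in HMD and 14, 9 and 5 in Bet+HMD. The groups overlapped, and no difference was tested.

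**Figure D4:**
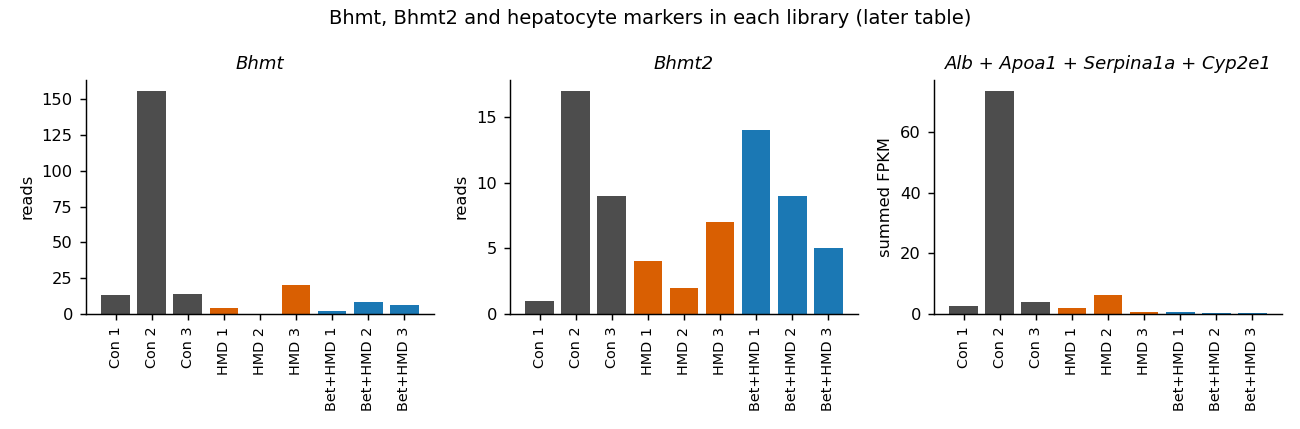
Reads of Bhmt and of Bhmt2 and the summed FPKM of the hepatocyte markers Alb, Apoa1, Serpina1a and Cyp2e1, in each of 9 libraries, as bars from 0 coloured by group. Con replicate 2 has 156 Bhmt reads and 73.55 FPKM of the markers, while no other library exceeds 20 Bhmt reads or 6.26 FPKM.

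Cbs (ENSMUSG00000024039, chromosome 17, 31612623 to 31637199, minus strand) encodes cystathionine beta-synthase, the enzyme through which homocysteine leaves the cycle. It had 7.34, 7.235 and 7.96 FPKM in Con, 8.73, 6.81 and 7.24 in HMD and 9.25, 9.40 and 9.04 in Bet+HMD. HMD was the group with the widest spread and included the Con range, and all Bet+HMD libraries lay above both. Against HMD the mean was 1.215-fold, with a log2 fold change of 0.26 (SE 0.0955) that did not pass, at a limma adjusted p of 0.0594. It passed under TPM scaling, quantile normalization, median centring, a correction for gene length and voom, and without HMD replicate 1, where the log2 fold change was 0.35 (limma adjusted p 0.0142). Against Con the log2 fold change came to 0.27 (SE 0.0755, limma adjusted p 0.03). That call was lost without Con replicate 1 and without any 1 Bet+HMD library, with limma adjusted p from 0.0695 to 0.121, and with all 3 groups in one fit (limma adjusted p 0.0518). Under TPM scaling the values were 0.47 against HMD and 0.50 against Con. HMD against Con gave -0.01 (95% interval -0.28 to 0.27, limma adjusted p 0.997). Astrocyte markers, whose cells express Cbs in the brain, summed to 458 to 615 FPKM in Con, 496 to 633 in HMD and 540 to 568 in Bet+HMD, most of it from Slc1a2. The sums overlapped, as did 4 of the 6 markers, but Gfap (50.5 to 52.5 FPKM) and Gja1 (19.4 to 20.0) were lower in every Bet+HMD library than in any other (66.0 to 84.4 and 24.3 to 30.3). Their part in the level of Cbs was not tested.

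The scale mattered for the direction of small differences. The Bet+HMD libraries had a lower sum of FPKM, 249135 to 258514 against 288439 to 307899 in the other libraries. Rescaling to TPM, which sets that sum equal, moved the median over all genes, as a log2 fold change, from -0.03 to 0.16 against HMD and from -0.04 to 0.17 against Con, and raised the share of higher calls, from 3118 of 6607 to 4496 of 6470 against HMD. Against Con the corresponding counts were 2645 of 5422 and 3980 of 5412. Mat2b, Ahcy and Mtr kept their sign and their call under TPM scaling, quantile normalization and median centring. Mat2a and Cbs kept their sign, and Ahcyl1, Ahcyl2 and Mtrr did not.

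A further 48 genes around the cycle were listed by role, and 40 of them were tested in each comparison. In HMD against Con 0 of the 40 were called, as for all genes. The 3 with the smallest p were carriers. Slc38a2, a carrier of small neutral amino acids including methionine, had 15.4 ± 3.02 FPKM in Con and 24.6 ± 3.43 in HMD, with no overlap (log2 fold change 0.65, unadjusted p 0.00542, limma adjusted p 0.86). Slc7a5, which carries large neutral amino acids, had 23.1 ± 6.05 and 30.7 ± 1.83 FPKM (limma adjusted p 0.98), and the folate carrier Slc46a1 had 4.52 and 3.725 FPKM (limma adjusted p 0.98).

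In Bet+HMD against HMD 22 of the 40 were called, or 55%, near the 48.3% of all genes. Higher were 5 of the 40, beside 22.8% of all genes, and lower were 17, beside 25.5% of all genes. Under TPM scaling 8 were higher and 9 lower, and under quantile normalization 2 and 15. The median log2 fold change was -0.20 against -0.03 for all genes. Among those called higher were the lysosomal cobalamin exporter Abcd4 (log2 fold change 0.48), the mitochondrial serine enzyme Shmt2 (0.45), Mettl16 (0.315) and the carrier Slc43a2 (0.20). Mettl16, which binds the Mat2a sites printed above, had 1.53, 1.59 and 1.92 FPKM in HMD and 2.096, 2.345 and 2.56 in Bet+HMD (limma adjusted p 0.0478). Against Con Mettl16 was not called (log2 fold change 0.21, limma adjusted p 0.129), whereas Mat2a was called against Con and not against HMD. A link between Mettl16 and Mat2a was not tested. The largest falls were those of spermidine synthase Srm (log2 fold change -1.08), the cobalamin protein Mmadhc (-1.01) and adenosine kinase Adk (-0.725). Next came the creatine-forming methyltransferase Gamt (-0.62) and the homocysteine thiolactone hydrolase Blmh (-0.62). Adk removes the adenosine that Ahcy makes, and it had 7.57 FPKM in HMD and 4.19 in Bet+HMD.

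The counts by role were on the scale of FPKM as deposited, on which 25.5% of all genes were called lower and 22.8% higher. Of the 12 tested users of SAM and salvage enzymes, 7 were lower and 0 higher. Of the cobalamin genes 3 of 6 were lower and 1 was higher, and of the folate genes 2 of 9 were lower and 2 higher. Methionine entry and SAM synthesis had 2 lower and 2 higher of 5. The genes of betaine supply and breakdown had 1 lower, the choline carrier Slc44a1, and 0 higher of 5. Homocysteine and adenosine removal had 2 lower of 3, Adk and Blmh.

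In Bet+HMD against Con 15 of the 40 were called, or 37.5%, near the 39.7% of all genes, 3 higher and 12 lower, where 19.4% of all genes were higher and 20.4% lower. Under TPM scaling 5 were higher and 7 lower. The median was -0.19 against -0.04 for all genes. Abcd4 (log2 fold change 0.49) and Slc43a2 (0.31) were among those called higher. Srm (-1.21), Mmadhc (-0.89), Gamt (-0.815), Adk (-0.61) and the cobalamin receptor Cd320 (-0.60) fell most. Slc38a2 and Slc7a5, which were lower in Bet+HMD than in HMD (log2 fold changes -0.52 and -0.595), had 0.13 and -0.175 against Con and were not called there (limma adjusted p 0.486 and 0.492). Both carriers had been named for their small p in HMD against Con. A fall from the same HMD libraries follows in part from that choice, and a return to the level of Con was not tested. The comparisons of Bet+HMD share the Bet+HMD libraries, and those of HMD share the HMD libraries.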

How the data were processed

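The authors deposited FPKM per gene in 2 tables, together with each gene's length (another unit, in bases) and position. Per the labels' processing notes, reads were aligned to mm10 with HISAT2 2.1.0 and counted with featureCounts 1.5.0-p3, while the study's methods name other versions, ribosomal RNA depletion and a stranded kit. FPKM times length and library size gave whole reads for 100% of values in every column (tolerance 0.05). Columns with the prefix COL were read as Con, by inference. Of 54532 identifiers 54409 were in GENCODE M21, 98.3% of them at the same position.

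In limma 3.58.1 (R 4.3.3), moderated with an intensity trend, log2(FPKM + 1) of each pair of groups was modelled for genes with a mean of at least 1 FPKM, and the fit was tested on simulated data. Fold changes on this scale understate those of low genes. p-values were two-sided and adjusted by Benjamini-Hochberg over all genes tested, called under 0.05. SE is limma's. Ratios used exact permutation tests (SciPy 1.17.1). No source says that samples were separate animals, so p-values measure the spread between samples. The genes of the cycle and the lists (48 pathway genes, markers of 11 tissues and cell types) were chosen with earlier results of these data known. All genes of the cycle were named, and of the pathway genes at most 5 called in each direction, or the 3 of smallest p, except 1 that is not reported here. Alternatives are given in the closing section.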

Additional observations from a re-analysis of the deposited data

How the results depend on the processing

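In HMD against Con no alternative called a gene of the cycle or a pathway gene, and the calls of Mat2b and Ahcy against both groups held under every alternative. A block by replicate number was also fitted. Same-numbered libraries correlated at -0.0555, 0.346 and 0.319 in HMD against Con and at a mean of -0.0786 and -0.105 in the other comparisons. In HMD against Con 2 of 3 HMD libraries correlated best with their own number, and 0 of 3 did in each other comparison. Correlations over so few libraries cannot settle whether the numbers pair the samples. The block gave 3 genes of the cycle against Con, without Mat2a and Cbs, and 3 against HMD, without Ahcyl1. Pathway genes numbered 18 and 10 against HMD and Con, where 5615 of 13672 and 3924 of 13643 of all genes were called. A filter at 5 FPKM left 14 pathway genes called against HMD and 8 against Con, out of 23 tested in each. Over all genes this filter left 4166 of 7549 and 3260 of 7585 called. Leaving out 1 library gave 2 to 5 genes of the cycle and 13 to 23 pathway genes against HMD, where 4782 to 6990 of all genes were called. Against Con it gave 2 to 6 and 8 to 17. The highest counts came without Con replicate 3, where 6269 of 13736 of all genes were called. The lowest came without a Bet+HMD library, for which shares over all genes are not given here, so these counts are not read as a trait of the genes. Ratios separating HMD from Con numbered 0 to 1. In all these the cause was not tested.

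Signs of log2 fold changes turned as follows, of genes uncalled unless stated. In HMD against Con, TPM scaling gave 0.0091 for Mat2b and 0.0107 for Cbs, quantile normalization 0.0054 for Cbs, a correction for gene length -0.00043 for Mtr and 0.0143 for Cbs, and all 3 groups in one fit or values of the later file 0.0086 for Cbs. Against HMD, TPM gave 0.019 for Ahcyl2 and 0.17 for Mtrr, quantile normalization 0.12 for the called Ahcyl1, median centring 0.0097 and voom 0.072 for Mtrr. Against Con, TPM gave 0.065 for Ahcyl1, 0.17 for Ahcyl2 and 0.15 for Mtrr, quantile normalization 0.24 for Ahcyl1 and 0.11 for Ahcyl2, and voom 0.032 for Ahcyl2 and 0.020 for Mtrr. Without 1 library, or without Con replicate 2 and HMD replicate 1 together, values in HMD against Con ran from -0.047 to 0.093 for Mtr, -0.084 to 0.13 for Mat2b, -0.077 to 0.028 for Mtrr, -0.11 to 0.070 for Cbs and -0.021 to 0.18 for Ahcy. They ran from -0.070 to 0.028 for Mtrr and -0.0048 to 0.14 for Mat2a against HMD, and from -0.10 to 0.014 for Ahcyl2 against Con. Summing Ahcy with its copies, and leaving out Con replicate 2 together with HMD replicate 1, were chosen after seeing the data and changed no call. Depth limits Bhmt and Bhmt2, with 20 reads or fewer in all but 1 library.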

Other observations

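The tables differed at Ahcy in HMD replicate 1, where its reads went from 342 in the earlier table to 358 in the later one, 4.68% more, while the total of that library fell by 5.49%, so its FPKM was 11.9% higher. Over the 6 shared libraries Mat2a, Mat2b, Ahcyl1, Ahcyl2 and Cbs had fewer reads in the later table in every library. The total of each of these libraries was lower there too, with changes from -0.312% to -5.49%.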
